A study of Mus musculus with 6 samples.

Results

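The genes described here are 33 mouse genes of the G1/S transition and of DNA replication, taken as a fixed list of symbols out of 19938 genes tested. Each gene was read from the probe set that carried its symbol alone in the array's annotation, and where several probe sets carried it, the brightest on average was taken. All 33 had a probe set, and 3 of them (Pcna, Slbp and Tk1) had 2.

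The samples were enterospheres, free-floating balls of enteric neural progenitors that form when digested gut muscle is cultured, here from newborn C57BL/6 mice aged up to 12 hours, with tissue of 3 mice pooled in each sample. In 3 samples the thyroid hormone triiodothyronine (T3) was present over the last day (1 day, 100 nM, with the unit written nm in the labels and read here as nM). The other 3 samples, the controls, went through that day without T3. All 6 samples had first been grown with epidermal growth factor at 10 ng/mL and fibroblast growth factor at 20 ng/mL, for 4 days and, after picking, for 5 more days, and had then spent 1 day in a differentiation medium whose listed components include neither factor. Whole spheres were measured on 1 expression array per sample, so the values belong to a mixture of cell types and of cell cycle stages. Markers of neurons, enteric glia and mesenchyme were bright besides those of progenitors, as described below.

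Cells commit to division late in G1, when D cyclins with their kinases and then E cyclins with theirs phosphorylate the retinoblastoma protein and free E2F transcription factors. E2F factors switch on genes for licensing of replication origins, for the replication fork and for nucleotide supply, and cells that leave the cycle to differentiate usually lower these genes. T3 acts through nuclear receptors that bind DNA and change transcription of their target genes. Enteric neural progenitors divide in culture as spheres under growth factors and form neurons and glia once the factors are withdrawn.

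Promoter sequences are shown for the members that carry at least 2 E2F-type words, because E2F factors are known to switch on many genes of DNA replication. The RefSeq promoter table (GRCm38.p6, 250 bases before to 50 bases after a start site) held windows for 26 of the 33 genes. The words searched on both strands were TTTCCCGC, TTTCGCGC, TTTGCCGC and TTTGGCGC. At least 1 of them was present for 11 of the 26 genes, or 42.3%, against 543 of 15614 genes tested that had a window, or 3.48%. It was also present for 21 of 60 other G1/S and replication genes with a window, or 35%, and for 1 of 25 G2/M and mitosis genes, or 4%. Windows of other genes were not matched for base composition. The CCAAT word was present for 18 of the 26 genes, 69.2%, against 41.7% of the genes tested. Its share was 50% in the other G1/S and replication genes and 84% in the G2/M and mitosis genes, so it is not particular to the 33 genes. In the windows below, written 5′ to 3′ on the strand of the gene, capitals mark the E2F-type words and their reverse complements.
Mcm3, minus strand, chr1:20820263-20820562: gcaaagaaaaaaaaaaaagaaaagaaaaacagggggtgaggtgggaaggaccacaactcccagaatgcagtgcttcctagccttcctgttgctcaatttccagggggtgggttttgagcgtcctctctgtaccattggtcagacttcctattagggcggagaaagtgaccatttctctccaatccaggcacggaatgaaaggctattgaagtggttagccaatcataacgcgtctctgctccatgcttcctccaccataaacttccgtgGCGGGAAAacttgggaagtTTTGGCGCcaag
Mcm5, plus strand, chr8:75109259-75109558: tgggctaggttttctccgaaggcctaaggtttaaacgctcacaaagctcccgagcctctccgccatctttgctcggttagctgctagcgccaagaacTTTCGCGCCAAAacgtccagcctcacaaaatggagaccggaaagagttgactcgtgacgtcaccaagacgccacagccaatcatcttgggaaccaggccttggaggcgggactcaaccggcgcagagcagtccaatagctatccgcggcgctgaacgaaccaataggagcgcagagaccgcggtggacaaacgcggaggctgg
Mcm6, minus strand, chr1:128359656-128359955: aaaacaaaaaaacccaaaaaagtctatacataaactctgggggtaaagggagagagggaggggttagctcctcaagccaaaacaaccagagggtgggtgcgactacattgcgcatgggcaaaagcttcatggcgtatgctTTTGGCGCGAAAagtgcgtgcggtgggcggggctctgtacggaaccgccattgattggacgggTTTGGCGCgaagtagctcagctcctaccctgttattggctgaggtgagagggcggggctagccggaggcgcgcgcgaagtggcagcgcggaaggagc
Mcm7, minus strand, chr5:138171834-138172133: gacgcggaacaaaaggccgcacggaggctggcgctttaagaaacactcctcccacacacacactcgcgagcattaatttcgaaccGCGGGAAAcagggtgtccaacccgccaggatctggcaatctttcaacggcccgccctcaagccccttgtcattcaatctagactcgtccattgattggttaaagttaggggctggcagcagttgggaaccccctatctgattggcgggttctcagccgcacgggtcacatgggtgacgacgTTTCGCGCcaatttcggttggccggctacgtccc
Rfc3, minus strand, chr5:151651159-151651458: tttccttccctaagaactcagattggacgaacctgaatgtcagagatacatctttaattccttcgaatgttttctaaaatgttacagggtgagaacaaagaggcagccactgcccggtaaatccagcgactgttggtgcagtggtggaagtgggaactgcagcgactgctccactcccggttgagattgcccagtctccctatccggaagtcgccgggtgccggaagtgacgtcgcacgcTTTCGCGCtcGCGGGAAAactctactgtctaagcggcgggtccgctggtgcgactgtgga
In Mcm5 and in the upstream run of Mcm6 a pair of words on opposite strands overlapped. The log2 changes with T3, described below, ran from -0.27 to 0.24 with a median of 0.03 in the 11 genes with a word, and from -0.18 to 0.35 with a median of 0.02 in the 15 genes with a window and no word. A match is a description of letters in the window and says nothing of binding in these cells.

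The comparison asks whether T3 altered the level of these genes in spheres kept in differentiation medium. No member passed the limma test over all genes (adjusted p from 0.179 for Ccne1 to 0.998 for Rrm1), where 3.10% of the genes tested passed, 2.28% higher and 0.823% lower. The 33 log2 changes, T3 minus control, ran from -0.27 for Rfc3, a factor of 0.831, to 0.35 for Rrm2, a factor of 1.27. Their median was 0.03 against 0.01 over all genes, and 24 of 33 lay above 0, against 53.3% of all genes. That count was 17 or 18 of 33 when the arrays were rescaled, so the sign of the many small changes depends on the scaling. The median over all genes then fell as well, to -0.02 with 75th percentile centring, -0.02 with median centring and -0.01 with repeated quantile normalization. The medians of the members were 0.0034, 0.0073 and 0.02 in that order. In bulk RNA of whole spheres, a different number of cells replicating DNA and a different amount of RNA per cell cannot be told apart.

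The arrays set bounds on the changes that were not called. The 95% interval of every one of the 33 changes (limma) lay within 2-fold in either direction, as did that of 99.1% of all genes. The interval lay within 1.5-fold for 31 of them, against 94.3% of all genes. The exceptions were Rrm2, whose interval reached 1.62-fold higher, and Rfc4, whose interval reached down to a factor of 0.664. The standard errors ran from 0.07 to 0.18 on the log2 scale with a median of 0.08, against a median of 0.09 over all genes.

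**Figure D1:**
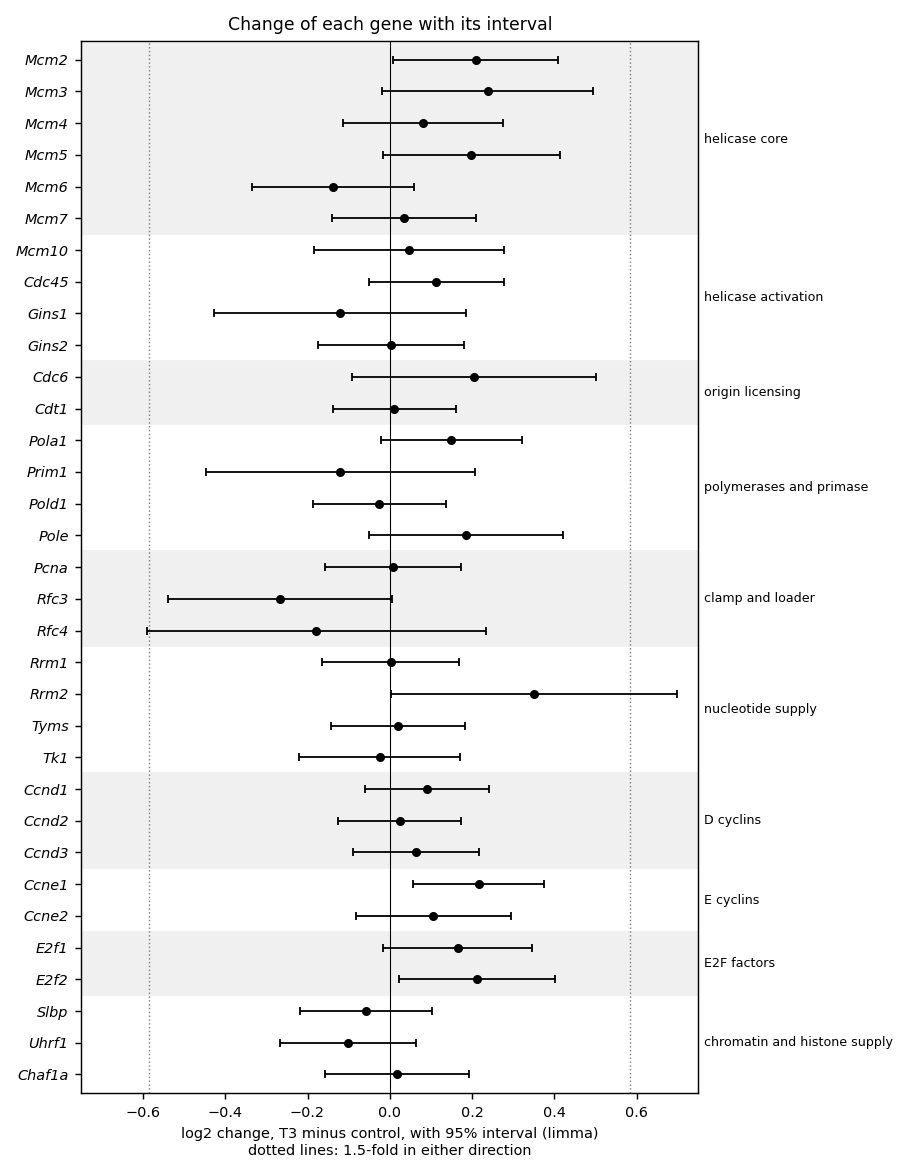
Each point is the log2 change, T3 minus control, of 1 of the 33 genes, with its 95% interval from limma, and the genes are grouped by role from top to bottom. The dotted lines mark 1.5-fold, which the intervals of Rrm2 and Rfc4 cross. The intervals of Ccne1, E2f2, Mcm2 and Rrm2 lie just above 0, and none of these genes passed after adjustment over all genes.

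At an unadjusted p under 0.05, 4 members (12.1%) were higher with T3 and 0 were lower, against 8.92% and 4.80% of all genes and 13.7% in both directions. They were Ccne1, E2f2, Mcm2 and Rrm2. The 3 T3 values lay above all control values for 6 members (Mcm2, Pola1, Pole, Ccnd1, Ccne1 and E2f2), or 18.2%, against 11.9% of all genes. They lay below all control values for 1 member (Uhrf1), or 3.03%, against 7.55%, with 19.5% of all genes in either direction. With 33 genes, these shares rest on a handful of members.

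D cyclins receive growth factor signals in G1 and activate Cdk4 and Cdk6. All of them gave bright signal in these spheres, with control means between the 93.7 and the 94.9 percentile of the genes tested, and their changes were at most 0.09. Ccnd1 had log2 values of 10.68, 10.67 and 10.63 in the T3 arrays, against 10.51, 10.59 and 10.61 in the control arrays. The T3 values all lay above the control values, by as little as 0.02 between the nearest arrays, and the change was 0.09 ± 0.07 (SE, adjusted p = 0.676, limma). Ccnd2 had 10.46, 10.40 and 10.42 in the T3 arrays, against 10.36, 10.41 and 10.43 in the control arrays. Ccnd3 had 10.42, 10.46 and 10.50 in the T3 arrays, against 10.35, 10.44 and 10.40 in the control arrays. The groups overlapped for both genes, and with 95% intervals from 0.917-fold to 1.13-fold for Ccnd2 and from 0.940-fold to 1.16-fold for Ccnd3, both changes were bounded tightly, and Ccnd2 had the smallest standard error of the 33 genes.

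E cyclins activate Cdk2 at the entry to S phase. Ccne1 (probe set 10562563) had the smallest p of the 33 genes. Its log2 values were 8.17, 8.21 and 8.20 in the T3 arrays, against 7.90, 7.99 and 8.05 in the control arrays. The groups did not overlap, and the change was 0.22 ± 0.07 (SE), a 1.16-fold difference with unadjusted p = 0.0136 and adjusted p = 0.179 (limma). Ccne2 had 6.55, 6.55 and 6.54 in the T3 arrays, against 6.39, 6.59 and 6.34 in the control arrays. Control replicate 2 lay above all T3 arrays, and the change of Ccne2 was 0.11 ± 0.08 (SE, adjusted p = 0.704, limma).

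The E2F factors on the list are transcriptional activators of the replication genes. E2f2 had log2 values of 6.40, 6.42 and 6.40 in the T3 arrays, against 6.18, 6.07 and 6.34 in the control arrays. The T3 values were closely spaced and lay above all control values, the nearest of which was control replicate 3. The change was 0.21 ± 0.08 (SE, adjusted p = 0.297, limma). E2f1 had 8.53, 8.45 and 8.53 in the T3 arrays, against 8.23, 8.33 and 8.46 in the control arrays. T3 replicate 2 lay just below control replicate 3, so the groups overlapped, and the change was 0.17 ± 0.08 (SE, adjusted p = 0.425, limma).

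**Figure D2:**
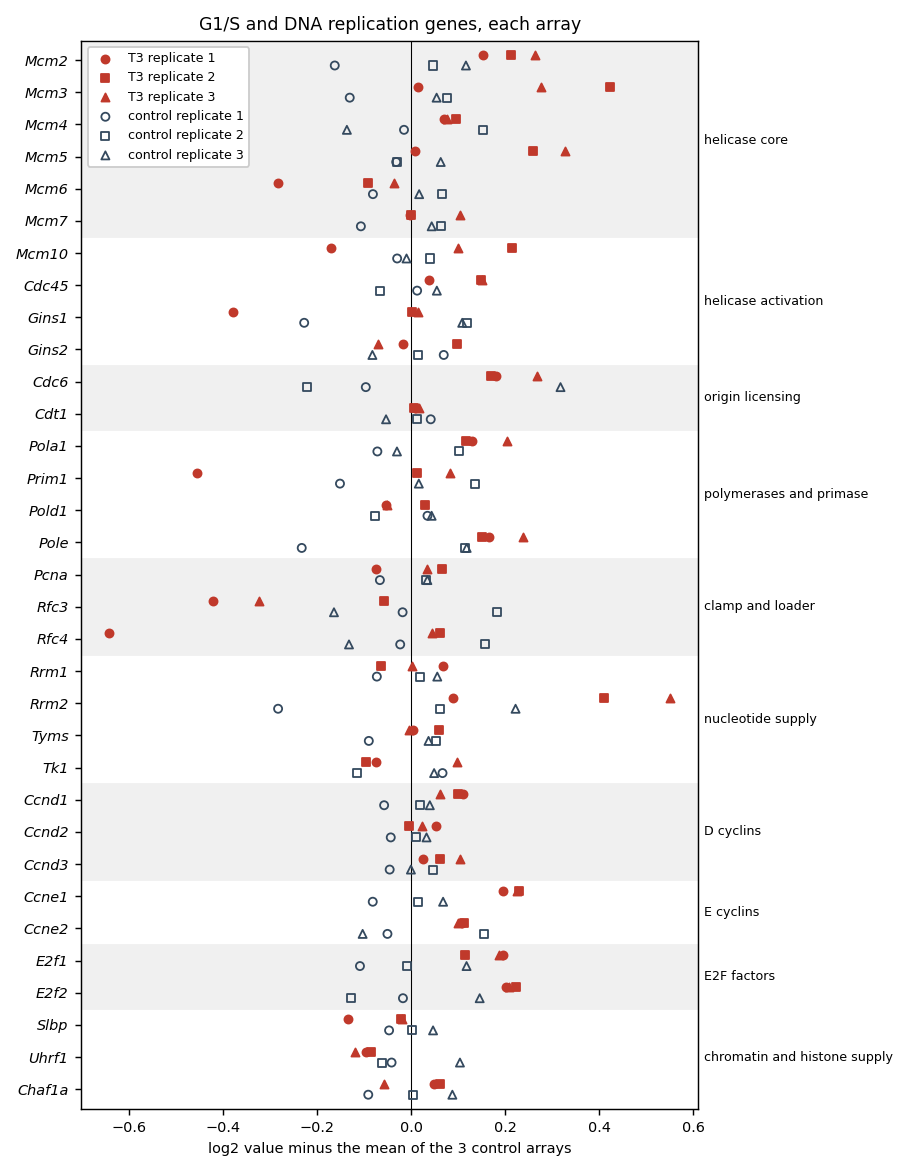
Log2 values of the 33 genes in each of the 6 arrays, drawn as the difference from the mean of the 3 control arrays of that gene, with T3 arrays as filled red symbols above control arrays as open symbols in each row. Replicates 1, 2 and 3 are circles, squares and triangles. T3 replicate 1 lies far to the left for Rfc4, Prim1 and Gins1, and control replicate 1 is the leftmost control symbol for 21 of the 33 genes.

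Origin licensing loads the Mcm2 to Mcm7 helicase onto DNA in G1 with the help of Cdc6 and Cdt1. Cdc6 had log2 values of 5.97, 5.97 and 6.06 in the T3 arrays, against 5.70, 5.57 and 6.11 in the control arrays. The control arrays spread over a wide range (SD 0.28, against 0.05 in T3, n = 3 each), and control replicate 3 was the highest of all 6. The change was 0.21 ± 0.13 (SE, adjusted p = 0.596, limma). Cdt1 had 7.58, 7.58 and 7.59 in the T3 arrays, against 7.61, 7.58 and 7.52 in the control arrays. It was among the least variable members, with an SD of 0.01 in T3 arrays and 0.05 in control arrays (n = 3 each) and a change of 0.01 ± 0.07 (SE).

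Of the 6 subunits of the helicase core, which form 1 ring and unwind DNA at the fork, 5 had a change above 0, and none passed. Mcm2 (probe set 10546163) had log2 values of 8.54, 8.60 and 8.65 in the T3 arrays, against 8.23, 8.44 and 8.51 in the control arrays. The groups were apart by 0.04 between T3 replicate 1 and control replicate 3, and the change was 0.21 ± 0.09 (SE, unadjusted p = 0.0425, adjusted p = 0.337, limma). Mcm3 had 7.13, 7.53 and 7.39 in the T3 arrays, against 6.98, 7.19 and 7.17 in the control arrays. Mcm5 had 8.50, 8.75 and 8.82 in the T3 arrays, against 8.46, 8.46 and 8.55 in the control arrays. In both genes T3 replicates 2 and 3 lay above the control arrays while T3 replicate 1 lay among them, and the changes were 0.24 ± 0.11 and 0.20 ± 0.09 (SE; adjusted p = 0.418 and 0.419, limma). Mcm7 had 8.74, 8.74 and 8.85 in the T3 arrays, against 8.64, 8.81 and 8.79 in the control arrays. Its groups overlapped, with a change of 0.03 ± 0.08 (SE). Mcm4 had a change of 0.08, and Mcm6 had the only negative change of the 6, at -0.14 ± 0.09 (SE, adjusted p = 0.589, limma), with means of 8.01 ± 0.13 in T3 and 8.15 ± 0.07 in control arrays (SD, n = 3 each).

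Helicase activation turns the loaded ring into a working fork with the help of Cdc45, the GINS complex and Mcm10. Cdc45 averaged 6.62 ± 0.06 in T3 and 6.50 ± 0.06 in control arrays (SD, n = 3 each), a change of 0.11. Mcm10 and Gins2 had changes of 0.05 and 0.0033. Gins1, the dimmest member, had log2 values of 4.44, 4.82 and 4.84 in the T3 arrays, against 4.59, 4.94 and 4.93 in the control arrays. Its control mean lay at the 21.0 percentile of the genes tested, and without detection calls it cannot be told from background. In both groups replicate 1 was the lowest array.

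Polymerase alpha and primase start each new strand, and polymerases delta and epsilon extend the lagging and leading strands. Pola1, the catalytic subunit of polymerase alpha, averaged 6.89 ± 0.05 in T3 and 6.74 ± 0.09 in control arrays, and Pole, that of polymerase epsilon, averaged 6.70 ± 0.05 in T3 and 6.52 ± 0.20 in control arrays (SD, n = 3 each). The groups did not overlap for either, with changes of 0.15 ± 0.07 and 0.18 ± 0.10 (SE; adjusted p = 0.449 and 0.522, limma). Without control replicate 1, the lowest array for Pole, the change of Pole was 0.07. Pold1, the catalytic subunit of polymerase delta, had a change of -0.03. Prim1, the small primase subunit, had log2 values of 5.72, 6.19 and 6.26 in the T3 arrays, against 6.03, 6.31 and 6.19 in the control arrays. Its change of -0.12 turned to 0.05 without T3 replicate 1.

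The clamp Pcna holds polymerases on DNA and is loaded by the replication factor C complex. Pcna (probe set 10487930) had log2 values of 11.11, 11.25 and 11.21 in the T3 arrays, against 11.11, 11.21 and 11.22 in the control arrays. The groups overlapped, the change was 0.0076 ± 0.07 (SE), and the 95% interval ran from 0.896-fold to 1.13-fold. Rfc3, a loader subunit, had 6.86, 7.23 and 6.96 in the T3 arrays, against 7.27, 7.47 and 7.12 in the control arrays. T3 replicates 1 and 3 lay below all control arrays and T3 replicate 2 did not, and the change was -0.27 ± 0.12 (SE, unadjusted p = 0.0535, adjusted p = 0.376, limma), the most negative of the list. Rfc4, another loader subunit, had 7.36, 8.06 and 8.04 in the T3 arrays, against 7.98, 8.15 and 7.87 in the control arrays. T3 replicate 1 alone stood apart, and the change of -0.18 turned to 0.05 without it.

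Nucleotide supply rests on ribonucleotide reductase, whose subunits are Rrm1 and Rrm2, and on thymidylate synthase (Tyms) and thymidine kinase (Tk1). Rrm2 (probe set 10394978) had the largest positive change of the 33 genes. Its log2 values were 7.66, 7.98 and 8.12 in the T3 arrays, against 7.29, 7.63 and 7.79 in the control arrays. The groups overlapped, the SD was 0.24 in T3 and 0.26 in control arrays (n = 3 each), and the change was 0.35 ± 0.15 (SE, unadjusted p = 0.0488, adjusted p = 0.361, limma). Without control replicate 1 the change of Rrm2 was 0.21. With the replicate number as a block, Rrm2 had the smallest p of the members, and no member passed. Rrm1, the large subunit, had a change of 0.0018 ± 0.07 (SE). Tyms had 7.949, 8.005 and 7.941 in the T3 arrays, against 7.855, 7.999 and 7.982 in the control arrays, and its change was 0.02 ± 0.07 (SE).

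The pair of Tk1 probe sets gave different values. The brighter one (probe set 10582809), used here by the rule, had 7.26, 7.24 and 7.43 in the T3 arrays, against 7.40, 7.22 and 7.38 in the control arrays, a change of -0.02 ± 0.09 (SE, adjusted p = 0.967, limma). The other (probe set 10393431) had 6.82, 6.84 and 6.87 in the T3 arrays, against 6.34, 6.50 and 6.69 in the control arrays. Its groups did not overlap and its change was 0.33 ± 0.10 (SE, adjusted p = 0.136, limma over all probe sets with 1 symbol). Tk1 is therefore uncertain in sign, and which of its probe sets reads the intended transcript was not settled here. The second probe sets of Pcna and Slbp had changes of 0.02 and -0.10.

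Chromatin copying needs histone supply (Slbp, which binds histone mRNA), histone deposition (Chaf1a) and maintenance of DNA methylation (Uhrf1). Uhrf1 averaged 6.44 ± 0.02 in T3 and 6.54 ± 0.09 in control arrays (SD, n = 3 each). All T3 values lay below the control values, by 0.02 between the nearest arrays, and the change was -0.10 ± 0.07 (SE, adjusted p = 0.666, limma). Slbp and Chaf1a had changes of -0.06 and 0.02.

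Arrays of a group differed in these genes in a shared way. Control replicate 1 was the lowest control array for 21 of the 33 genes, 63.6%, against 33.3% of all genes, and T3 replicate 1 was the lowest T3 array for 19, 57.6%, against 36.8%. Control replicate 1 was the lowest of all 6 arrays for 15 members, 45.5%, against 17.9% of all genes. The pattern was not particular to the 33 genes. T3 replicate 1 was the lowest T3 array for 66.7% of the other G1/S and replication genes and 66.7% of the mitosis genes described below. Control replicate 1 was the lowest control array for 42.7% and 73.3% of these lists. T3 replicate 1 was the lowest T3 array for all 6 helicase core subunits and for all 3 clamp and loader genes. The mean log2 value of the 33 genes was 7.73, 7.85 and 7.85 in the T3 arrays, against 7.69, 7.79 and 7.79 in the control arrays. The group means thus differed by less than the arrays within a group. Over all genes the means were 6.99, 6.98 and 6.99 in the T3 arrays, against 6.95, 6.96 and 6.99 in the control arrays.

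The members with an unadjusted p under 0.05 depended on single arrays. Without control replicate 1 no member had such a p, against 9.77% of all genes. There were 2 without T3 replicate 2, against 10.9% of all genes, and 1 without T3 replicate 3, against 11.4%. Without control replicate 3 there were 7, against 15.0%. Besides Pole, Rrm2, Rfc4, Prim1 and Gins1, the changes beyond 0.1 that moved by over 1.5 times without 1 array were those of Mcm2 (0.13 without control replicate 1), Mcm3 (0.15 without T3 replicate 2), Mcm6 (-0.06 without T3 replicate 1) and Rfc3 (-0.18 without control replicate 2). The same held for Uhrf1 (-0.05 without control replicate 3), for Cdc6 (0.10 without control replicate 2 and 0.36 without control replicate 3) and for Ccne2 (0.18 without control replicate 2 and 0.05 without control replicate 3). No member passed after adjustment in any of the 6 fits that left out 1 array. Weighting arrays by their estimated quality gave control replicate 1 a weight of 6.18 against 0.414 to 1.70 for the other arrays, and 10 members then passed, all higher with T3, where 17.8% of all genes passed. They were Ccne1, E2f1, E2f2, Cdc6, Mcm2, Mcm3, Mcm5, Pola1, Pole and Rrm2. The part of control replicate 1 in these 10 calls was not tested beyond the fit without it.

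**Figure D3:**
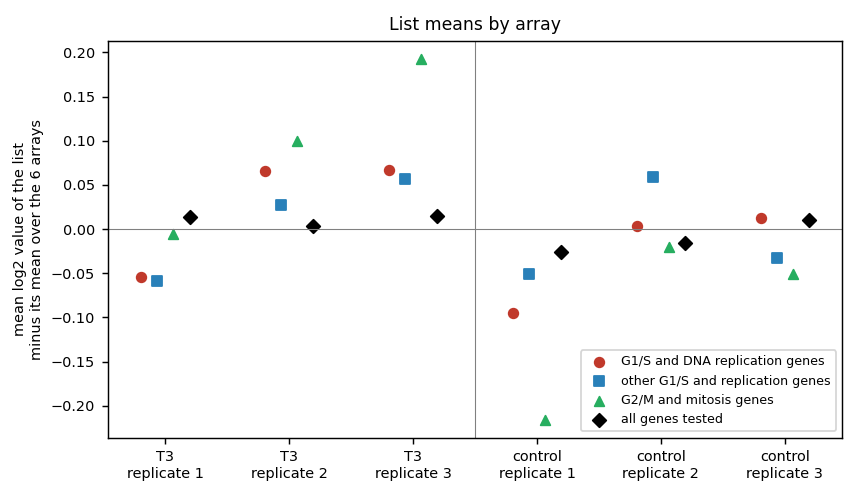
Mean log2 value of each gene list in each array, minus the mean of that list over the 6 arrays, for the 33 genes (circles), 75 other genes of the same processes (squares), 30 mitosis genes (triangles) and all 19938 genes (diamonds). The 33 genes lie lowest in control replicate 1 and next lowest in T3 replicate 1, and the mitosis genes lie lowest in control replicate 1 and highest in T3 replicate 3.

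Other genes of the same processes were taken from a list of 76, of which 75 were measured. Of these, 1 rose, none fell and 74 did not pass, with a median change of 0.0076. The gene that rose was Mycn, a MYC family transcription factor known to drive division of neural progenitors. Mycn had log2 values of 7.77, 7.60 and 7.64 in the T3 arrays, against 7.01, 6.96 and 7.19 in the control arrays. The groups lay well apart, the change was 0.62 ± 0.09 (SE), a 1.53-fold difference with adjusted p = 0.00847 (limma), and without control replicate 1 the adjusted p was 0.0553. Its relative Myc, with a control mean at the 89.1 percentile of the genes tested, had a change of -0.16 (adjusted p = 0.473, limma).

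None of the remaining 74 genes passed, and those of smallest p lay on either side of 0. Rrm2b, a ribonucleotide reductase subunit used outside S phase, averaged 7.62 ± 0.07 in T3 and 7.32 ± 0.09 in control arrays (SD, n = 3 each; adjusted p = 0.0965, limma). Mtbp, which takes part in origin firing, averaged 7.22 ± 0.05 in T3 and 7.47 ± 0.03 in control arrays (SD, n = 3 each; adjusted p = 0.0984, limma). Ccna2, the cyclin of S phase and G2, had a change of 0.35 ± 0.11 (SE, adjusted p = 0.163, limma). The kinase genes Cdk2, Cdk4 and Cdk6 had changes of -0.04, -0.03 and -0.09. By process, the medians were 0.03 for 10 licensing genes, -0.00079 for 14 fork genes, -0.02 for 17 polymerase, loader and ligation genes, 0.08 for 6 nucleotide genes, 0.04 for 19 genes of G1/S control and -0.08 for 9 chromatin genes.

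Genes of the next cell cycle stage are given beside the replication genes. None of the 30 G2/M and mitosis genes with a value passed, 13 had an unadjusted p under 0.05, all higher, where 8.92% of all genes were higher at that threshold, and the median change was 0.22, against 0.03 for the 33 genes. The 4 of smallest p were Anln, a scaffold of the cleavage furrow, at 0.35 ± 0.09 (SE), Top2a, which untangles DNA, at 0.34 ± 0.09 (SE), Nusap1, a spindle protein, at 0.47 ± 0.13 (SE), and Aurka, a spindle pole kinase, at 0.26 ± 0.07 (SE). Their adjusted p lay between 0.0729 and 0.129 (limma). Without control replicate 2, Anln, Top2a and Nusap1 passed, with adjusted p of 0.0488, 0.0308 and 0.0490 (limma). Over all 15 alternatives Anln passed in 3 and Nusap1 in 2, and their adjusted p reached 0.286 and 0.367 (limma). The value of Top2a rests on the probe set chosen, since the mean of its probe sets gave 0.18 (adjusted p = 0.521, limma). Control replicate 1 was the lowest control array for 22 of the 30. The difference between the lists was not tested.

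**Figure D4:**
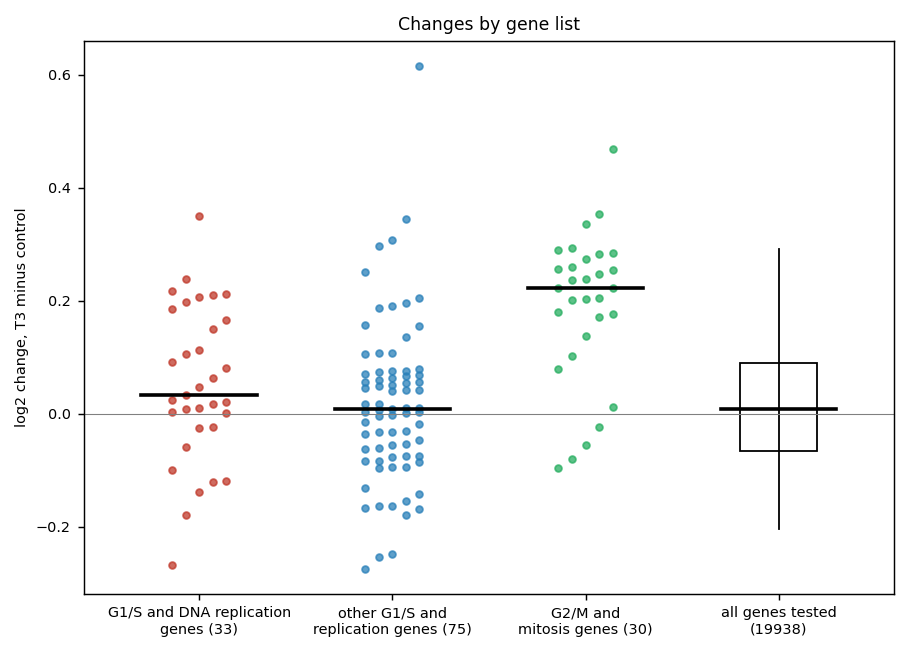
Log2 change, T3 minus control, of each gene as a point in 3 lists, with thick bars at the medians (0.03 for the 33 genes, 0.0076 for 75 other genes of the same processes, 0.22 for 30 mitosis genes). For all 19938 genes the box spans the middle of the distribution from the 25th to the 75th percentile, the line runs from the 5th to the 95th percentile and the bar marks the median of 0.01. The highest point, in the second list, is Mycn.

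Genes named as cyclin-dependent kinase inhibitors, most of which hold cells in G1, were measured for 7 of 8 listed genes, and none passed. The gene without a value was Cdkn1a, so nothing can be said of it here. Their changes ran from -0.18 for Cdkn2c to 0.11 for Cdkn2a, and Cdkn1b, which accumulates in cells that stop dividing, had a change of -0.11 ± 0.08 (SE, adjusted p = 0.660, limma), with Cdkn1c at 0.10. With the mean of its probe sets the difference of Cdkn1b was -0.24 (adjusted p = 0.141, limma). None of the 7 had an unadjusted p under 0.05, where 13.7% of all genes did. Of 21 measured genes of replication stress and DNA repair none passed, and 2 had an unadjusted p under 0.05, a smaller share than the 13.7% of all genes. These were the checkpoint kinase gene Chek2, at 0.21 ± 0.07 (SE, adjusted p = 0.172, limma), and Bard1, the partner of Brca1, at 0.20 ± 0.08 (SE, adjusted p = 0.334, limma). The value of Bard1 rests on the probe set chosen, since the mean of its probe sets gave 0.07 (adjusted p = 0.795, limma). Chek1 and Gadd45g had changes of 0.19 and -0.19.

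The treatment and the cell type were checked on genes outside the list. Klf9 and Hr, known T3 targets, had changes of 1.86 ± 0.08 and 1.92 ± 0.07 (SE), Thrb rose by 1.30, and Dio3 had a change of 0.54 that did not pass (adjusted p = 0.120, limma). Progenitor markers were bright, with Sox10, which is also on the enteric glia list, at 11.58 in T3 and 11.62 in control arrays. Of the 12 listed, 9 were analysed here with no call. Macrophage and epithelial markers averaged 4.99 and 5.25 in T3 and 4.99 and 5.20 in control arrays, below the array medians of 6.09 to 6.15. Neuron markers averaged 9.38 to 9.50 over the T3 arrays, against 9.08 to 9.27 over the control arrays, with 3 of 12 higher (Prph, Snap25 and Nos1). Enteric glia markers averaged 10.43 in T3 and 10.40 in control arrays, with 1 of 6 higher (Gpr37l1). Fibroblast and mesenchyme markers were also bright, at 10.27 in T3 and 10.25 in control arrays. Of 9 such markers Thy1 rose by 1.24 and Twist1 fell by 0.49. Their median change was -0.04, and 3 of the 9 (33.3%) had a change above 0, against 53.3% of all genes. Smooth muscle markers averaged 7.53 in T3 and 7.45 in control arrays, with 2 of 8 higher (Myh11 and Myocd) and 2 lower (Acta2 and Tagln). Endothelial markers averaged 6.27 in T3 and 6.22 in control arrays, with 1 of 8 higher (Plvap) and 2 lower (Kdr and Egfl7), and mesothelial markers averaged 5.56 in T3 and 5.39 in control arrays with no call. The part of cell type shares in the changes of the replication genes was not tested.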

How the data were processed

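Total RNA of 6 samples was measured on 1 Affymetrix mouse array each. The authors deposited log2 expression values for 35556 probe sets, made with RMA and Partek version 6.5 per the submitters' processing notes; the sources used here name neither settings nor annotation build, and detection calls were not used. RMA as usually run aligns the distributions of the arrays, and array background compresses changes of dim genes. The platform annotation gave 1 symbol to 21789 probe sets, which stood for 19938 genes.

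Tests used limma (version 3.58.1, R version 4.3.3; functions lmFit and eBayes), were two-sided, and were adjusted by Benjamini-Hochberg over all genes, with a call under 0.05; the procedure was tested on simulated data. SE and 95% intervals are limma's. Precision is limited by having 3 arrays in each group. Nothing in the labels says whether samples came from separate cultures, so p-values reflect variation between these 6 arrays, which may be technical. Deviations of same-numbered samples correlated by 0.179, 0.0171 and 0.0002, and those of samples with unlike numbers by -0.176 to 0.114. Such correlations over all genes cannot show whether samples were paired. The main fit took no pairing, and the replicate number entered only as an alternative. Alternatives were each array left out, the replicate number as a block, 3 rescalings, 2 filters on dim genes, averaging probe sets within a gene, trend with robust fitting, and array weights. Each probe set on its own was added after seeing the data.

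The members and lists were chosen with earlier results of these data known. By rule the text gives array values of the 8 members of smallest p and of 13 preset members, and, from the lists of other G1/S and replication, mitosis, kinase inhibitor and DNA repair genes, the 4 genes of smallest p and every called gene. Array values of Rfc4, Prim1 and Gins1, and the mention of Myc, Cdk2, Cdk4, Cdk6, Sox10 and the called cell type markers, were chosen after their values were seen.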

Additional observations from a re-analysis of the deposited data

How the results depend on the processing

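No member was called in 14 of the 15 alternatives, and 10 were called with array quality weights. With those weights 3548 genes were called, the median change of the members was 0.11 and 15 members had an unadjusted p under 0.05, as did 32.96% of all genes. The cause was not tested. Leaving out each array in turn gave 191 to 640 called genes (618 with all arrays), 0 called members throughout, a median change of the members of 0.03 to 0.07, and 0 to 7 members at an unadjusted p under 0.05 (4 with all arrays), against 9.77% to 15.1% of all genes. Fewer samples were fitted there. Centring on the array 75th percentile or median each left 2 members at an unadjusted p under 0.05, among them Rfc3, lower, against 13.6% and 13.7% of all genes. With the replicate number as a block, 472 genes and 0 members were called, and 6 members had an unadjusted p under 0.05, against 13.5% of all genes. Rrm2 had the smallest p of the members in that fit, and the smallest adjusted p of a member was 0.0659 (limma). The labels do not say whether the numbers pair the samples. Of the 33 members, 19 kept their sign in every alternative and 14 did not. With array quality weights the turned changes were 0.15 for Gins1, -0.0375 for Gins2, -0.0236 for Cdt1, 0.11 for Prim1 and 0.0043 for Slbp. After 75th percentile centring they were -0.0270 for Gins2, -0.0200 for Cdt1, -0.0227 for Pcna, -0.0285 for Rrm1, -0.0105 for Tyms, -0.0062 for Ccnd2 and -0.0131 for Chaf1a. After median centring they were -0.0230 for Gins2, -0.0160 for Cdt1, -0.0188 for Pcna, -0.0245 for Rrm1, -0.0065 for Tyms, -0.0022 for Ccnd2 and -0.0092 for Chaf1a. After repeated quantile normalization they were -0.0286 for Gins2, -0.0217 for Cdt1, -0.0053 for Pcna, -0.0054 for Rrm1, -0.0096 for Tyms and -0.0162 for Chaf1a. Tk1 turned to 0.16 with the mean of its probe sets and to 0.33 with its other probe set, an alternative added after seeing the data. Over the fits without 1 array, the ranges were -0.23 to 0.0083 for Gins1, -0.0438 to 0.0399 for Gins2, -0.0165 to 0.0310 for Cdt1, -0.22 to 0.0472 for Prim1, -0.0258 to 0.0491 for Pcna, -0.0348 to 0.0347 for Rrm1, -0.0253 to 0.0466 for Tyms, -0.0286 to 0.0609 for Chaf1a, -0.0861 to 0.0116 for Tk1, -0.30 to 0.0525 for Rfc4, -0.0359 to 0.16 for Mcm10 and -0.0199 to 0.0655 for Mcm7. Signal over background is unknown because no detection calls were used, which limits what can be said of dim members such as Gins1.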
